A study of Mus musculus with 4 samples.

Results

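Neurexins, neuroligins and cerebellins are adhesion proteins of the synapse, and 9 of their genes (NRXN2, NRXN3, NLGN1, NLGN2, NLGN3, CBLN1, CBLN2, CBLN3 and CBLN4) were examined here in the developing mouse cerebellum. The genes were taken by their symbol in the array's table, whatever their signal. Of the 9 symbols, 8 had a probe, a short DNA sequence that captures the labelled RNA of a transcript, and NLGN3 had none. Together they had 16 of the 45281 probes, which stand for 30854 gene symbols. Symbols are given in capitals, as the table spells them.

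Neurexins sit in the presynaptic membrane and bind partners across the synaptic cleft. Neuroligins are their postsynaptic ligands, and NLGN2 is known for its place at inhibitory synapses. Cerebellins are secreted proteins of the C1q family that bind neurexins, and CBLN1, released by granule neurons, holds parallel fiber synapses on Purkinje cells together.

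RNA came from the anterior or the posterior lobes of the cerebellum of untreated Swiss mice at postnatal day 7, when granule neurons proliferate and start to form synapses. There were 2 samples of anterior and 2 of posterior lobes, each on its own array, and the comparison asks which genes differ between these regions. The labels do not say whether the samples of a lobe came from separate animals, so p-values measure the spread between these samples, which may be technical. The lobes were dissected whole, so in these values fewer cells of a type and less RNA per cell cannot be told apart.

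The signal of a probe is the mean brightness of its beads, a median of 40 to 42 beads per probe and array. Between 46.5% and 47.6% of all probes were detected on an array, which here means a detection p-value under 0.05 against the array's negative controls. Signals were quantile normalized between arrays and put on a log2 scale, and limma tested the 21726 probes that were detected on 2 arrays or more, with Benjamini-Hochberg adjustment across them. Differences are posterior minus anterior. The 2 arrays per lobe limit the precision. An exact permutation test of 2 against 2 cannot go below p = 0.33, so limma's p-values rest on a spread shared across probes. The arrays of a lobe also differed unequally from each other, with an SD of 0.32 (log2) over the tested probes between the anterior arrays and 0.20 between the posterior arrays.

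Of the 16 probes 10 passed the detection filter, and they belong to NRXN2, NRXN3, NLGN2, CBLN1 and CBLN4. No member probe passed an adjusted p of 0.05 by limma, against 0.106% of all tested probes, and 1 had an unadjusted p under 0.05. With a block for the replicate number, ILMN_2723541 of NRXN2 passed (adjusted p = 0.025 by limma), among 588 of all tested probes. The labels do not tie that number to an animal. The study's methods ask for more than 1.2-fold and p under 0.05, without naming an adjustment, and here limma's unadjusted p was used. By this criterion 1 of the 10 was higher in the posterior lobes (3.30% of all tested probes were) and 0 were lower (5.0% of all). In either direction that is 1 of 10 against 8.29% of all tested probes. This background depends on the test, being 1802 probes by limma, 741 by the methods' t-test, under which the same member probe passed, and 766 to 4677 on leaving out an array. On the normalized scale the lobes did not overlap for 4 of the 10 probes, against 42.6% of all tested probes. The 4 include ILMN_1253547 of NRXN2, which passed the filter through the anterior arrays alone. The median difference of the 10 probes, ILMN_1253547 among them, was -0.071 (log2), and that of all tested probes was 0.0023. As 4 of the 10 probes belong to NRXN2 and 3 to NRXN3, they do not count as separate genes.

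The probe past the criterion was ILMN_2723541 of NRXN2, the gene of neurexin 2. Its intensity as deposited was 761.5 and 663.0 on the anterior arrays and 988.2 and 1106.8 on the posterior arrays. The lowest posterior value exceeded the highest anterior value, and the standard error from the beads was between 2.73% and 4.02% of the signal on each array. Normalized, the anterior lobes had a log2 signal of 9.46 ± 0.017 (SD, n = 2) and the posterior lobes 10.04 ± 0.073. The difference of 0.58 (log2, standard error 0.11, 95% interval 0.32 to 0.84) makes the posterior signal 1.49 times the anterior one, with an unadjusted p of 0.0016 and an adjusted p of 0.18 by limma. On leaving out each array in turn the difference stayed between 0.52 and 0.63. Its adjusted p moved to either side of 0.05, and the number of all tested probes past it moved as well. Such a fit takes its spread only from the lobe that kept both arrays, so that p is not read.

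**Figure D1:**
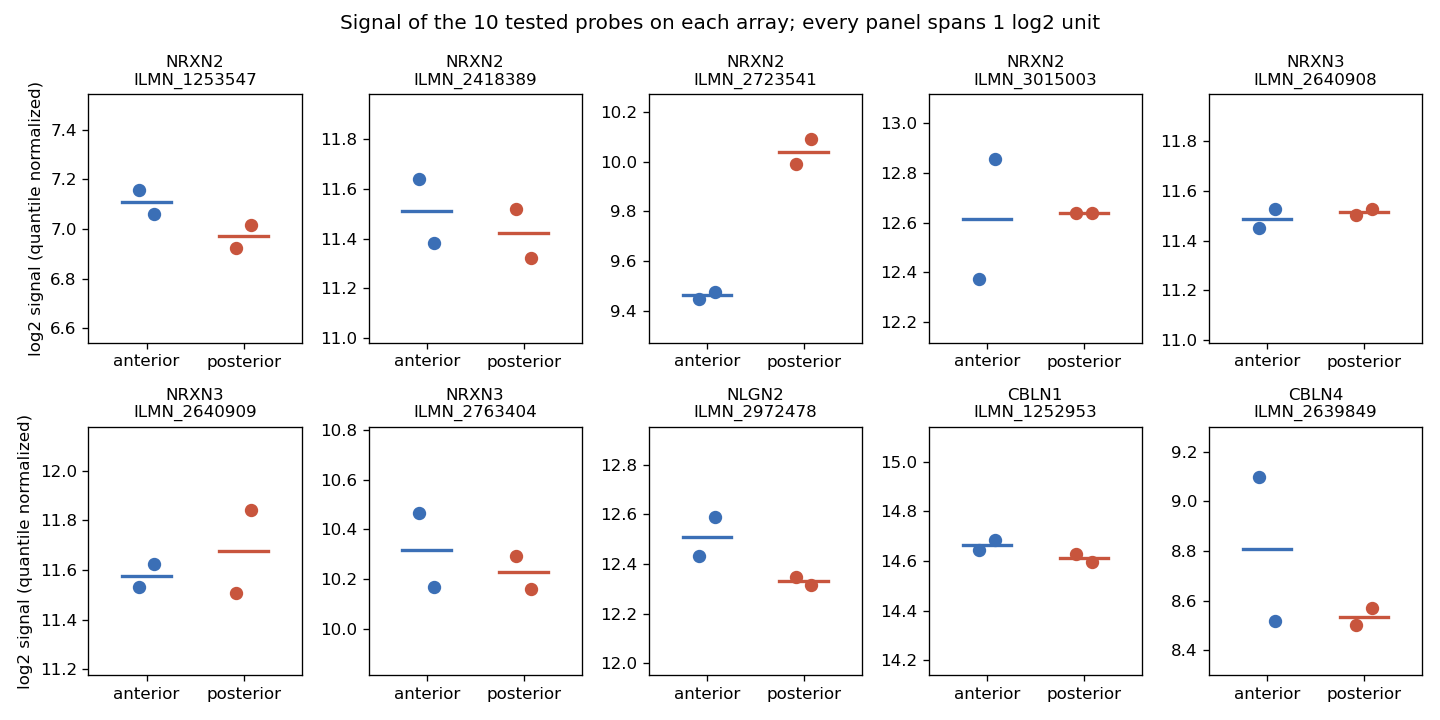
Quantile normalized log2 signal (vertical axis) of each of the 10 tested probes on the anterior and the posterior arrays. Points are arrays, horizontal bars are the lobe means, and every panel spans the same range. ILMN_2723541 of NRXN2 is the probe with the widest gap between the lobes, at a difference of 0.58, and the anterior arrays lie far apart for CBLN4 and for ILMN_3015003 of NRXN2.

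The other probes of NRXN2 did not show this difference. ILMN_3015003 had log2 signals of 12.38 and 12.86 on the anterior arrays and 12.64 and 12.64 on the posterior arrays. Both posterior values fell between the anterior ones, so the difference of 0.022 (95% interval -0.36 to 0.40) has no stable direction, being -0.22 on leaving out anterior replicate 1 and 0.26 for anterior replicate 2. ILMN_2418389 had 11.64 and 11.38 on the anterior and 11.52 and 11.32 on the posterior arrays, with the lobes overlapping and a difference of -0.089 (95% interval -0.38 to 0.21). ILMN_1253547 was close to the limit of detection. It was detected on both anterior arrays, at intensities of 153.9 and 120.5, and on neither posterior array, at 122.0 and 131.9. These intensities overlap as deposited, though the normalized log2 signals did not (7.16 and 7.06 anterior, 6.93 and 7.02 posterior). The probe passed the filter through the anterior arrays alone, so no fold or direction is given (adjusted p = 0.66 by limma). ILMN_3086209 was not detected on any array, with intensities of 64.2 to 77.4.

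Whether the probes of a gene differ in their change was tested after the values of NRXN2 had been seen, with limma's diffSplice over all 4279 genes with more than 1 tested probe. ILMN_2723541 differed from the other NRXN2 probes by 0.65 (log2). Those probes, here and in the F test, included ILMN_1253547, which passed the filter through the anterior arrays alone. A test without ILMN_1253547 was not run. For NRXN2 as a whole the F test gave an unadjusted p of 0.013 and an adjusted p of 0.79 by limma, so the divergence did not hold up over all genes tested, of which 0.0234% had an adjusted p under 0.05. Neurexin genes give long and short transcripts from separate promoters and many splice forms. The table does not give the probes' sequences, so which transcripts each probe captures was not analysed here.

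NRXN3, the gene of neurexin 3, was detected by all 3 of its probes on every array. ILMN_2640908 had log2 signals of 11.45 and 11.53 in the anterior lobes and 11.50 and 11.53 in the posterior, a difference of 0.027 (95% interval -0.16 to 0.22). ILMN_2640909 had 11.53 and 11.62 against 11.51 and 11.84, and ILMN_2763404 had 10.46 and 10.17 against 10.29 and 10.16. The lobes overlapped for each of the 3 probes, whose differences lay between -0.089 and 0.10 with adjusted p-values by limma of 0.82 to 0.93. The intervals of all 3 lay between -0.41 and 0.40, so a difference as large as that of ILMN_2723541 is outside them.

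Among the neuroligins, NLGN2 was measured by ILMN_2972478. Its intensity was 5972.2 and 5692.8 on the anterior arrays and 5077.4 and 5207.1 on the posterior arrays. Both posterior arrays were below both anterior arrays. Mean log2 signals were 12.51 ± 0.11 (SD, n = 2) for anterior and 12.33 ± 0.023 for posterior lobes, a difference of -0.18 (standard error 0.080, 95% interval -0.38 to 0.017, unadjusted p = 0.067 and adjusted p = 0.53 by limma). The anterior signal was 1.13 times the posterior one, under the 1.2-fold criterion. The size rested on the anterior arrays, with a difference of -0.26 on leaving out anterior replicate 1 and -0.10 for anterior replicate 2. The probe of NLGN1, a neuroligin of excitatory synapses, was not detected on any array. Its intensities were 79.5 and 65.6 in the anterior lobes and 83.8 and 74.3 in the posterior, with detection p-values of 0.29 to 0.58, so no fold is given.

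Of the cerebellins, CBLN1 (ILMN_1252953) had the steadiest signal. Its intensity was 27330.7 and 24667.1 in the anterior lobes and 25675.9 and 25058.0 in the posterior, which overlap as deposited. Normalized, the log2 means were 14.66 ± 0.028 (SD, n = 2) for anterior and 14.61 ± 0.023 for posterior lobes, and the lobes no longer overlapped. The difference of -0.052 (standard error 0.050, adjusted p = 0.75 by limma) had a 95% interval of -0.17 to 0.070, from 2 arrays per lobe. With arrays scaled to a common 75th percentile instead, the difference was -0.00094.

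CBLN4 (ILMN_2639849) was detected on every array. Its intensity was 598.9 and 336.1 in the anterior lobes and 356.9 and 380.9 in the posterior. The array of anterior replicate 1 stood above the other 3, and anterior replicate 2 lay within 0.052 (log2) of both posterior arrays after normalization. Mean log2 signals were 8.81 ± 0.41 (SD, n = 2) for anterior and 8.54 ± 0.047 for posterior lobes, a difference of -0.27 (95% interval -0.77 to 0.23, adjusted p = 0.68 by limma). The difference was 0.019 on leaving out anterior replicate 1, and for anterior replicate 2 it was -0.56. The difference of CBLN4 is therefore that of 1 array.

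The other cerebellins were not detected. CBLN3, known as a partner of CBLN1 in granule neurons, has a pair of probes with intensities of 58.5 to 74.7 over all arrays. CBLN2 likewise has a pair of probes, with intensities of 62.2 to 111.0, the highest being that of ILMN_2894369 on anterior replicate 1, where the lowest detected intensity was 139.8. For both genes this says only that the probes gave no signal above the negative controls, and no fold is given.

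The other genes of the neurexin pathway were taken from 9 lists, with 1 probe per gene, the brightest of those tested. Of 54 genes 52 had a probe and 42 were tested, of which 23 were higher and 19 lower in the posterior lobes, with a median difference of 0.011 (log2). None passed an adjusted p of 0.05 by limma. By the 1.2-fold criterion 1 gene was higher and 1 lower. That count moved on leaving out an array, as did that of all tested probes. By the methods' t-test it was 0, so neither call held under that test. It also rested on the choice of probe. When every tested probe of these genes was read, a step added after values were seen, 5 genes had a probe past the criterion. These were 6 of 80 probes, a share near the 8.29% of all tested probes, and by the brightest probe it was 2 of 42 genes. The 6 include ILMN_1213160 of LIN7A, which passed the filter through the anterior arrays alone. The added ones were APBA2, DLGAP1 and LIN7A, through probes other than the brightest and all lower in the posterior lobes.

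Of the C1q-like relatives and their receptor, 3 of 5 genes were tested, and their differences ran from -0.11 for C1QL2 to -0.019 for the receptor BAI3.

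Of 17 other neurexin ligands 12 were tested, 8 higher and 4 lower, with a median of 0.021. CLSTN1, calsyntenin 1, was the gene past the 1.2-fold criterion. Its log2 signals were 10.46 and 10.72 in the anterior lobes and 10.24 and 10.07 in the posterior, so both posterior arrays lay below both anterior arrays. The difference was -0.44 (standard error 0.13, unadjusted p = 0.014 and adjusted p = 0.37 by limma). NXPH4, a neurexophilin, had the highest difference of the list, 1.06, with a 95% interval of -1.02 to 3.14 (adjusted p = 0.70 by limma). Its probe had intensities of 723.6 and 86.0 in the anterior lobes and 623.1 and 426.0 in the posterior, so the difference came from anterior replicate 2 alone, where it was not detected.

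Of 21 cytoplasmic partners 17 were tested, 9 higher and 8 lower, with a median of 0.010. DLG2, a postsynaptic scaffold of the PSD-95 family, passed the 1.2-fold criterion. Its log2 signals were 11.98 and 11.73 in the anterior lobes and 12.10 and 12.28 in the posterior, a difference of 0.33 (standard error 0.11, unadjusted p = 0.028 and adjusted p = 0.43 by limma). DLG4, which encodes PSD-95 and binds neuroligins, had values of 7.92 and 6.47 in the anterior lobes and 8.12 and 7.16 in the posterior, which overlap. It was not detected on anterior replicate 2, so its difference of 0.44 (95% interval -0.83 to 1.71) rests partly on a signal within the background. APBA2, a partner of neurexins, had the lowest difference, -0.22 (adjusted p = 0.62 by limma), and its dimmer probe ILMN_2846507 passed the criterion at -0.38 (adjusted p = 0.30 by limma). A dimmer probe of LIN7A, a scaffold that binds CASK, differed by -0.42, another was detected in the anterior lobes only, and 1 of DLGAP1, a postsynaptic scaffold, differed by -0.38. Both inhibitors of neuroligin binding were tested, with 0.033 for MDGA1 and 0.10 for MDGA2, and the 5 splicing regulators lay between -0.054 for PTBP2 and 0.10 for KHDRBS2.

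**Figure D2:**
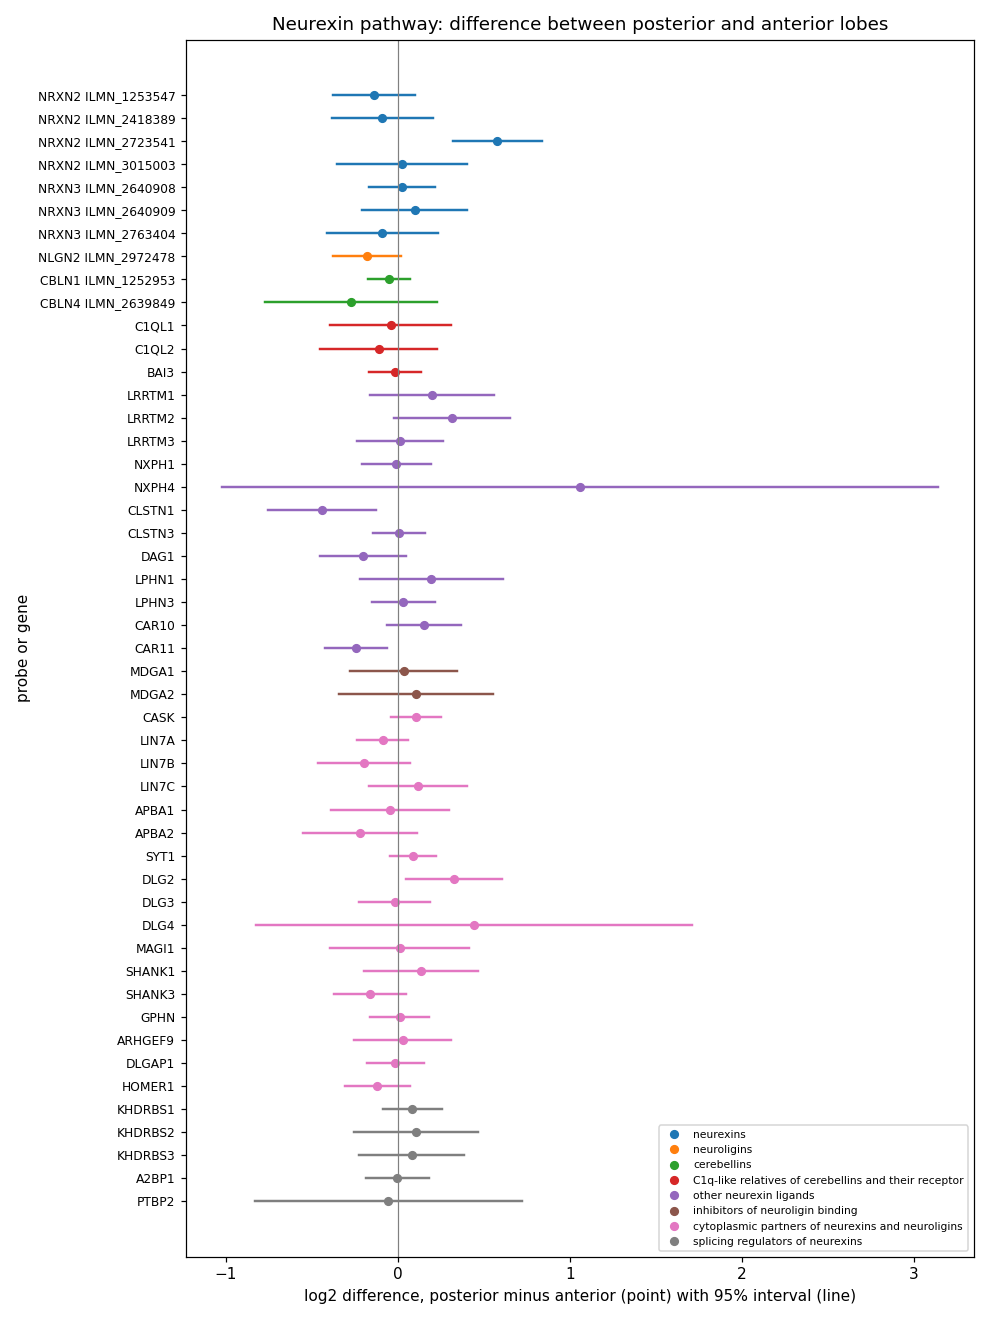
Log2 difference, posterior minus anterior (horizontal axis), of the 10 tested member probes and of 1 probe per gene for other tested ligands, partners, inhibitors and splicing regulators. Points are limma's differences, lines are 95% intervals and colours are the gene lists. The point of ILMN_1253547 of NRXN2, undetected on both posterior arrays, is not read as a fold. ILMN_2723541 of NRXN2, at 0.58, CLSTN1, at -0.44, and DLG2, at 0.33, have intervals clear of 0, as has CAR11 at -0.24, which is under 1.2-fold, and none has an adjusted p under 0.05.

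Markers of the cells that make or receive these proteins were read from the same arrays. Of 8 genes of mature granule neurons 7 were tested, 3 higher and 4 lower, with a median of -0.048. Their summed signal was 20297 and 20202 in the anterior lobes and 21780 and 21810 in the posterior. CALB2 had the brightest probe, and FAT2 was not tested. The higher posterior sum came from CALB2, and the other 6 genes summed to 11089 and 10716 in the anterior lobes and 9680 and 9810 in the posterior. By the 1.2-fold criterion CALB2 (0.37) and GRIN2C (0.32, detected on only 1 anterior array) were higher and ETV1 (-0.64) was lower. Of 7 genes of Purkinje cells 4 were tested, 1 higher and 3 lower, with a median of -0.091. Their summed signals were 51228, 52748, 49565 and 48359 (anterior, then posterior), ITPR1 having the brightest probe. CALB1, CAR8 and PCP4, well known Purkinje markers, were not among the tested genes, and the differences of the tested ones ran from -0.12 for PCP2 to 0.26 for SLC1A6. Neither list held a gene past an adjusted p of 0.05 by limma, and no tested Purkinje gene passed the criterion. Of 7 genes of granule progenitors 4 were tested, with a median of 0.013, and ATOH1, GLI1 and MYCN were not.

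Other cell types differed more. All 11 tested genes of the 12 oligodendrocyte markers were lower in the posterior lobes, with a median of -0.86, and 4 passed an adjusted p of 0.05 by limma. Their summed signal was 118800 and 116930 in the anterior lobes and 82689 and 77256 in the posterior. MBP had the brightest probe, and OLIG2 was not tested. Of 6 genes of meningeal fibroblasts 5 were higher in the posterior lobes, with a median of 0.50, and DCN passed the adjusted p. Their summed signal was 14883 and 16877 in the anterior lobes and 22054 and 25543 in the posterior, led by IGF2. By the 1.2-fold criterion 10 oligodendrocyte genes were lower and 4 fibroblast genes higher. The part of these cell types in the difference of ILMN_2723541 of NRXN2 was not tested. Among the 4 tested of 7 inhibitory neuron genes all were lower, as NLGN2 was, with a median of -0.17 and summed signals of 40060, 40984, 35848 and 36086. PVALB had the brightest probe, and GAD2, PAX2 and SLC6A5 were not tested. The part of inhibitory neurons in the difference of NLGN2 was not tested either.

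The medians of the remaining lists were -0.057 for unipolar brush cells (4 of 4 genes tested), 0.018 for brainstem and cerebellar nuclei (4 of 8), -0.033 for astrocytes and Bergmann glia (8 of 8), 0.064 for endothelial cells (5 of 5) and 0.022 for microglia (4 of 5). The 2 tested of 5 choroid plexus genes were at -0.89 (CLIC6, past the 1.2-fold criterion) and -1.11 (TTR), and their summed signal of 1009, 11083, 600 and 4060 differed more within the lobes than between them, through TTR.

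The genes with the profile most like that of the member probe with the highest difference were found by the distance between mean-centred log2 signals over the 4 arrays, a description of 4 values each. For ILMN_2723541 of NRXN2 they were LIMK1, a kinase of the actin cytoskeleton, at a distance of 0.067, then F13A1 at 0.074 and HIST1H3C at 0.083.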

How the data were processed

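Anterior and posterior lobe RNA was hybridized to Illumina MouseWG-6 arrays. Per the file headers, the authors exported the mean bead intensity of each probe from GenomeStudio 1.9.0 without normalization. The deposited table also gives a detection score, the fraction that is 1 minus the detection p-value, and, as a measure of the precision of the signal, the deposited SD and number of beads. Another 16 columns were not used.

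In R 4.3.3 the arrays were quantile normalized, values under 1 were set to 1, and log2 was taken. The filter kept probes detected (detection p-value under 0.05) on 2 arrays or more. The functions lmFit and eBayes (trend on) of limma 3.58.1 then compared the lobes, with no other term and with Benjamini-Hochberg adjustment across all tested probes. For a probe undetected on both arrays of a lobe no fold is given. The fits were tested on simulated data.

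Every member probe is reported. Each other gene was read from its brightest tested probe, and the genes past a threshold and the highest and lowest of each list could be named. Others, such as single marker genes, were chosen after their values were seen. The members and lists were chosen with earlier results of these data known. All 145 list symbols were found in the RefSeq gene table of GRCm38.p6, used only for names.

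Alternatives were other normalizations and background correction (neqc), floor, detection filters, no intensity trend, the methods' t-test, a replicate block, leaving out each array, and a 1.5-fold threshold. The test between probes of a gene, the reading of every probe of the pathway genes, and the alternatives for the pathway count, were added after the data had been seen.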

Additional observations from a re-analysis of the deposited data

How the results depend on the processing

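ILMN_2723541 of NRXN2 was higher in the posterior lobes, and past the 1.2-fold criterion, under all 15 alternatives (log2 differences of 0.52 to 0.63, adjusted p of 0.0096 to 0.9992). Of 146 recomputed differences of the 10 tested member probes, 136 kept their direction and their side of the adjusted p, 3 passed it and 7 changed direction. The 136 include 11 of ILMN_1253547 of NRXN2, which passed the main filter through the anterior arrays alone and is given no direction. The 7 all came from leaving out an array, which gave ranges of -0.56 to 0.019 for CBLN4, -0.22 to 0.040 for NRXN2 ILMN_2418389 (0.0094 without posterior replicate 2), -0.22 to 0.26 for NRXN2 ILMN_3015003, -0.013 to 0.068 for NRXN3 ILMN_2640908, -0.069 to 0.27 for NRXN3 ILMN_2640909 and -0.24 to 0.058 for NRXN3 ILMN_2763404. The cause was not tested. ILMN_1253547 of NRXN2 was not tested under 4 alternatives, the 2 stricter filters and the removal of either anterior array.

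The 23 probes past the adjusted p of 0.05 by limma numbered 123 without normalization, 73 when no probe was filtered out, 13 with the trend off and 0 by the t-test of the methods (1763 at an unadjusted p under 0.05), and 0 to 2538 when an array was left out, where the spread comes only from the lobe that kept both arrays. The 0 came without either posterior array (785 and 825 probes at an unadjusted p under 0.05). The 1802 probes past the 1.2-fold criterion became 741 by the t-test, 389 at 1.5-fold and 766 to 4677 without an array. The member probes past the adjusted p, 0 of 10, were 0 to 1 without an array, and those past the criterion, 1 of 10, were 1 to 2, and 0 at 1.5-fold. The 2 pathway genes past the criterion were 1 without normalization, 0 by the t-test, 5 when every tested probe was read and 0 to 11 without an array. The divergence of the NRXN2 probes had an adjusted p by limma of 0.64 to 1 over the normalizations.

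Labels number the replicates alike in both lobes without saying that a number marks an animal. The difference between replicates 2 and 1 correlated between lobes at r = 0.46 over the tested probes. A block for this number put 588 tested probes past the adjusted p and 2818 past the criterion. Of the members 1 passed the adjusted p, ILMN_2723541 of NRXN2 (0.025 by limma), and 5 pathway genes passed the criterion. Signal over background limits CBLN2, CBLN3 and NLGN1, whose probes stayed within the negative controls.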
